A study of Mus musculus with 9 samples.

Results

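The vacuolar ATPase (V-ATPase) subunit genes described here are Atp6v1a, Atp6v1b2, Atp6v1c1, Atp6v1d, Atp6v1e1, Atp6v1f, Atp6v1g1, Atp6v1h, Atp6v0d1 and Atp6ap1. They were chosen by symbol as subunits of the pump and make up 10 of the 54532 genes in the count table. All 10 were among the 12012 genes with enough counts to be tested. RNA was sequenced from wild type C57/B6 bone marrow neutrophils after 12 h with 0.5% fetal bovine serum (FBS). The neutrophils were kept alone, with PyMT-N cells or with PyMT-M cells, in 3 libraries per condition. The sample titles name DMEM as the medium of both co-cultures and name no medium for neutrophils kept alone. PyMT, polyoma middle T antigen, drives a mouse model of mammary carcinoma, and the labels do not spell out N and M. The labels call the libraries biological replicates but do not tie them to animals or cultures, so p-values measure the spread between these samples, which may be technical. Co-cultured neutrophils were recovered by fluorescence-activated cell sorting and the labels do not say whether those kept alone were sorted, so co-culture and sorting cannot be told apart. Both comparisons with culture alone share the same 3 control libraries.

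The V-ATPase is a rotary proton pump of lysosomes, endosomes, granules and phagosomes. Its cytosolic V1 sector hydrolyses ATP, and the rotation is passed through a central shaft to the membrane-embedded V0 sector, which moves protons into the organelle. In neutrophils and other phagocytes the pump acidifies the compartments in which proteases and other hydrolases act, and on lysosomes it takes part in signalling of amino acid supply.

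Levels are given as normalised CPM, counts scaled to a library size that was adjusted with trimmed means of M values (TMM), a method that assumes that most genes do not differ. Library totals ran from 1641049 to 4524563 counts, the lowest in alone replicate 3, and the member counts per library ran from 72 to 2976. Alone replicate 3 stood apart, in which mitochondrial messenger RNA took 1.75% of the counts, where alone replicates 1 and 2 had 0.235% and 0.180%. All 14 neutrophil markers had counts in each condition, but their summed level was 34515 to 48387 CPM alone, 16745 to 21191 with PyMT-M cells and 17195 to 22058 with PyMT-N cells. The 16 epithelial markers summed to 47.5 to 110.1, 101 to 166 and 2365 to 3158 CPM in the same order, and Epcam, Krt19, Krt5, Krt14, Cldn4 and Esrp1 were at 0 alone. With PyMT-M cells, Krt5, Krt14, Cldn3, Cldn4 and Esrp1 were at 0, and with PyMT-N cells Krt5 was. The 18 mesenchymal markers summed to 1451 to 1682, 3468 to 4142 and 2019 to 2334 CPM, with Lum at 0 throughout, Col1a2 at 0 alone and with PyMT-N cells, and Postn at 0 in both co-cultures. Sums of the 14 monocyte and macrophage markers were 1213 to 1742, 566 to 848 and 2111 to 2617 CPM, with C1qa at 0 alone. Of the 12 of these that were tested, 3 were higher and 6 lower than alone in each co-culture, with medians of -0.56 and -0.55 for PyMT-M and PyMT-N cells, so the sum with PyMT-N cells rests on a few of them. The 8 B cell markers summed to 562 to 1292, 79.3 to 126 and 17.0 to 19.0 CPM, the 8 dendritic cell markers to 359 to 739, 22.9 to 36.5 and 46.5 to 92.0, and the 8 eosinophil and basophil markers to 348 to 465, 7.95 to 9.93 and 17.1 to 19.6. Flt3 was at 0 with PyMT-M cells, Siglech with PyMT-N cells and Epx in both co-cultures. The 8 T and NK cell markers summed to at most 8.02 CPM in any library, with Cd3e, Cd3g, Cd4 and Klrb1c at 0 throughout, and the 7 erythroid markers to at most 0.191. V-ATPase genes are used by all these cell types, and what RNA of other cells added to the member counts was not tested. In bulk RNA, fewer cells of a type and less RNA per cell cannot be told apart.

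Transcription factors of the MiT/TFE family, Tfeb among them, are known to bind the E-box CACGTG in promoters of lysosomal genes. RefSeq promoter windows (GRCm38.p6, from 250 bases before to 50 after a start) were found for 6 of the 10 members, and both strands were searched for CACGTG, for the longer TCACGTGA and for a palindrome of 10 bases, each of which contains it. Atp6v0d1 and Atp6v1a, a gene lower in both co-cultures and one that differed between them, both held CACGTG and TCACGTGA, so 2 of 6 members had each. Across all 32851 windows 7.15% held CACGTG, 0.974% TCACGTGA and 0.326% the palindrome of 10 bases, which was in 0 of the 6 members. Of 13 other subunit genes with windows, Atp6v0b and Atp6v0e held CACGTG and Atp6v0e also TCACGTGA. The stretches below are written 5′ to 3′ on the gene's strand, with CACGTG in capitals. They lie at chr8:105566055-105566114 (Atp6v0d1, minus strand), chr16:44139358-44139417 (Atp6v1a, minus), chr4:117887324-117887383 (Atp6v0b, minus) and chr17:26676376-26676405 (Atp6v0e, plus).
Atp6v0d1: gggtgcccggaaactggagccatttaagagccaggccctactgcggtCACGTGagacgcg
Atp6v1a: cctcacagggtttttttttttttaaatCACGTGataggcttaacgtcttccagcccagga
Atp6v0b: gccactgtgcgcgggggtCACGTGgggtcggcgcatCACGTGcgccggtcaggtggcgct
Atp6v0e: gggcggggctttagcgcgccgatCACGTGa
Counted with the RefSeq start base as 0, the E-box began at -3 in Atp6v0d1, at -131 in Atp6v1a, at -36 and -18 in Atp6v0b and at 3 in Atp6v0e. The GENCODE gene models differ from these starts. They begin upstream of the stretch for Atp6v1a (44139705, minus strand) and for Atp6v0e (26663231, plus strand). All 30 bases shown for Atp6v0e lie in GENCODE exons. A match of letters is a description and says nothing of binding.

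Atp6v1b2, Atp6v1e1 and Atp6v0d1 were lower in both co-cultures than alone, while Atp6v1a and Atp6v1f differed between the co-cultures, where they were higher with PyMT-N cells. With PyMT-N cells, 5 of the 10 genes were lower than alone and 0 higher at an adjusted p under 0.05 (edgeR quasi-likelihood test, Benjamini-Hochberg over all tested genes), where 23.6% of all genes were lower and 29.4% higher. With PyMT-M cells 6 were lower and 0 higher, against 27.9% and 28.2% of all genes. Between the co-cultures 2 were higher with PyMT-N cells and 0 lower, against 19.1% and 15.5%. The counts of 0 were also 0 at an unadjusted p under 0.05 and by DESeq2, and limma-voom gave 0, 1 (Atp6v1h) and 0. By DESeq2, 5 members were lower with PyMT-N cells, 4 were lower with PyMT-M cells and 2 were higher between the co-cultures. For the same calls limma-voom gave 6, 8 and 2. The members' median log2 fold change was -0.49, -0.52 and 0.07 in that order, and that of all genes 0.12, -0.03 and -0.02.

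These directions depend on the scaling. Scaled to plain library totals, the log2 fold changes of all genes moved by a median of 0.29, 0.50 and -0.21. Scaled to 25 genes used by all leukocytes, they moved by a median of 1.02, 1.47 and -0.44. Under the leukocyte scaling 5 members were higher and 1 lower than alone with PyMT-N cells, and 7 and 0 with PyMT-M cells. Of all 12012 genes, 6690 were then higher and 934 lower with PyMT-N cells, and 7578 and 295 with PyMT-M cells. The 25 genes themselves had a TMM-scaled median of -1.26 (SD 0.96 over genes) with PyMT-N cells and -1.69 (SD 0.44) with PyMT-M cells. Set against the median of all genes, the members' median lay at -0.61 on the log2 scale with PyMT-N cells under TMM, library totals and the leukocyte genes alike, and -0.49, -0.45 and -0.46 with PyMT-M cells. Every fold change below is on the TMM scale, and the shares and ratios do not depend on the scaling.

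**Figure D1:**
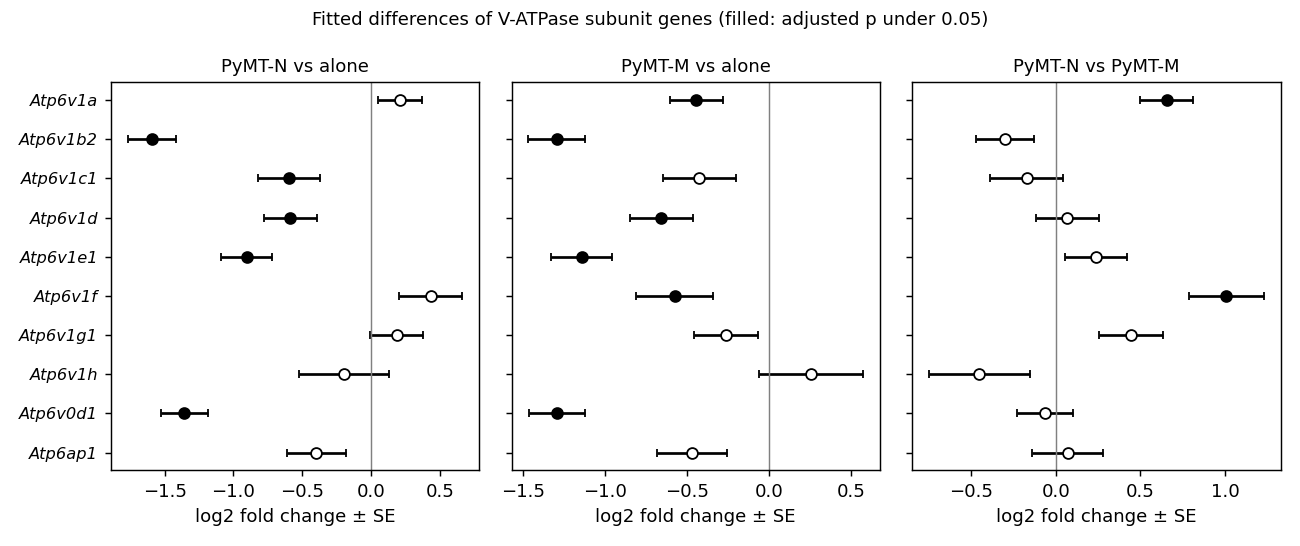
Fitted log2 fold change (x axis, points) with its SE (bars) of the 10 V-ATPase genes (y axis) in the 3 comparisons, filled where the adjusted p is under 0.05. Atp6v1b2 (-1.59 and -1.29) and Atp6v0d1 (-1.36 and -1.29) lie farthest to the left in both comparisons with culture alone, and Atp6v1f (1.01) farthest to the right between the co-cultures.

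The catalytic hexamer of V1 is built of alternating A and B subunits. Atp6v1a (ENSMUSG00000052459, chromosome 16, 44085402 to 44139705, minus strand, GRCm38) encodes subunit A, which holds the ATP-hydrolysing site. Its level was 439.8, 430.4 and 471 CPM in the 3 alone libraries, 353, 274 and 359.6 with PyMT-M cells, and 512, 552 and 489 with PyMT-N cells. All PyMT-M libraries were below and all PyMT-N libraries above the alone ones. The log2 fold change was 0.65 (SE 0.16, adjusted p = 0.00461, edgeR) between PyMT-N and PyMT-M cells, a 1.57-fold rise. It was -0.44 (SE 0.16, adjusted p = 0.0285) with PyMT-M cells and 0.21 (SE 0.16, adjusted p = 0.279) with PyMT-N cells against culture alone. The PyMT-M call was lost without alone replicate 1 (adjusted p = 0.0588), alone replicate 2 (0.0531) or PyMT-M replicate 2 (0.165) and by DESeq2 (0.0693), and its sign turned under library totals (0.06). Relative log expression (adjusted p = 0.0860) and upper quartile size factors (0.0759) in edgeR lost the call too. So did no filter (0.172) and a fit of only the compared groups (0.149).

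Atp6v1b2 (ENSMUSG00000006273, chromosome 8, 69088646 to 69113711, plus strand) encodes the B subunit of most cell types, and Atp6v1b1 that of specialised acid-secreting epithelia. The Atp6v1b2 level was 983, 1112 and 1093 CPM alone, 405, 385 and 513 with PyMT-M cells, and 423, 306 and 328 with PyMT-N cells. No co-culture library came near the alone libraries, and the co-cultures overlapped. The gene fell by 1.59 on the log2 scale with PyMT-N cells (SE 0.18, adjusted p = 2.61e-06, edgeR) and fell by 1.29 with PyMT-M cells (SE 0.17, adjusted p = 2.24e-05), which is 3.02-fold and 2.45-fold. Between the co-cultures the log2 fold change was -0.30 (SE 0.17, adjusted p = 0.194). It was the only member still called lower than alone under the leukocyte scaling, with PyMT-N cells (-0.57, adjusted p = 0.0200), while with PyMT-M cells its sign turned there (0.22). Atp6v1b1 had 0 counts in all 9 libraries, where 3 counts stood for 0.573 to 2.26 CPM.

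**Figure D2:**
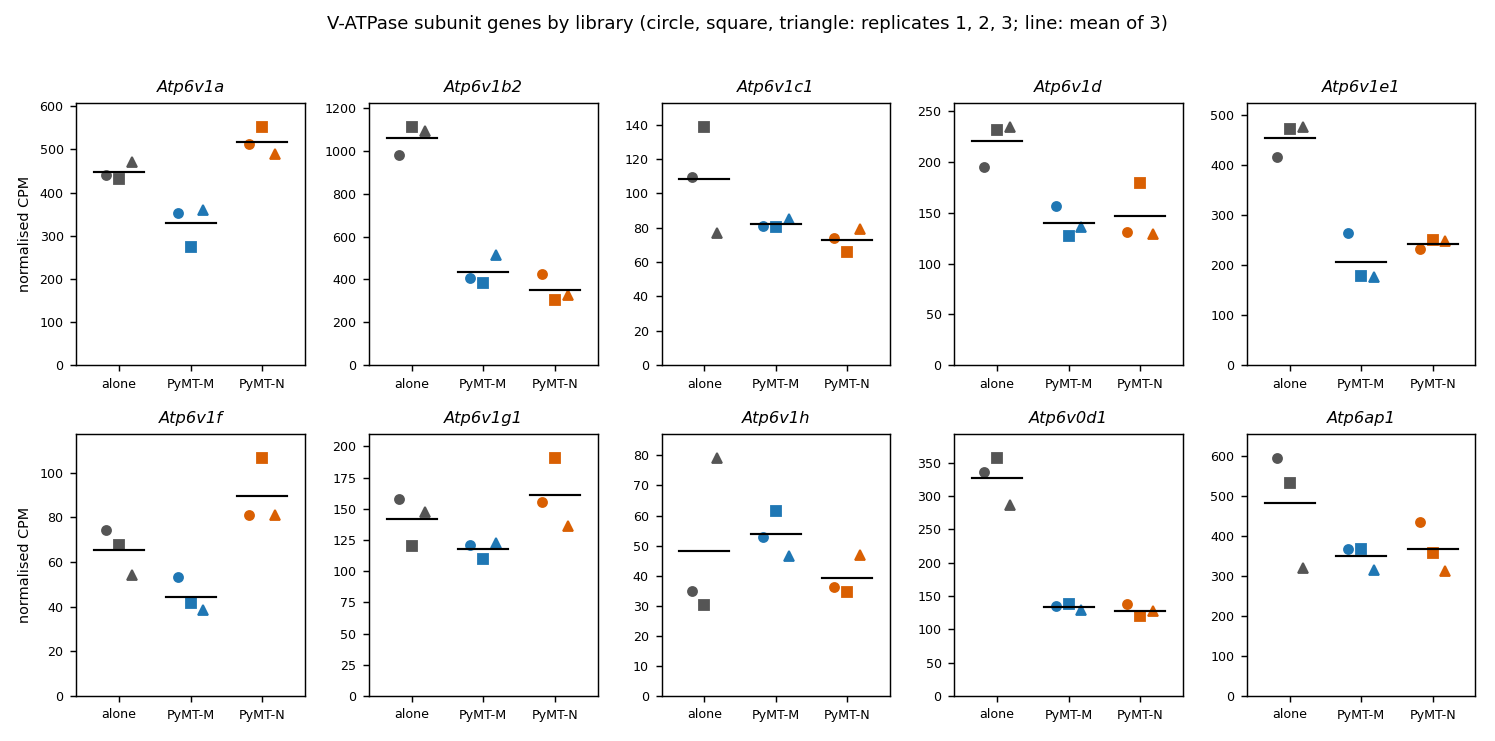
Normalised CPM (y axis) of each V-ATPase gene in every library of the 3 conditions (x axis; circle, square and triangle for replicates 1, 2 and 3, line for the mean). Atp6v1b2, Atp6v1e1 and Atp6v0d1 are higher in each alone library than in any co-culture library, and alone replicate 3 departs from the other alone libraries in Atp6v1h (79.2 CPM) and Atp6ap1 (320.6).

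The A and B genes thus differed from each other across conditions, and since 1 of each is needed per pair their counts were set as a ratio, which was chosen after their values had been seen. Atp6v1a counts were 0.447, 0.387 and 0.431 times those of Atp6v1b2 alone. With PyMT-M cells the ratio was 0.872, 0.712 and 0.701, and with PyMT-N cells 1.21, 1.80 and 1.49. The 3 conditions did not overlap. The ratio was 3.52-fold higher with PyMT-N cells and 1.80-fold higher with PyMT-M cells than alone, and 1.96-fold higher with PyMT-N than with PyMT-M cells (exact two-sided permutation p = 0.1 each, the smallest that 3 libraries against 3 allow).

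Subunits D and F form the central shaft that turns inside the hexamer. Atp6v1d (ENSMUSG00000021114, chromosome 12, 78840725 to 78861638, minus strand) was at 196, 232 and 235 CPM alone, 157, 127 and 136 with PyMT-M cells, and 131, 179 and 129.6 with PyMT-N cells. Its alone libraries were above all others, and the co-cultures overlapped. It fell by 0.66 on the log2 scale with PyMT-M cells (SE 0.19, adjusted p = 0.00885, edgeR) and fell by 0.59 with PyMT-N cells (SE 0.19, adjusted p = 0.0177). The PyMT-N call was lost without alone replicate 2 (adjusted p = 0.0581), PyMT-N replicate 1 (0.0760) or PyMT-N replicate 3 (0.0940), and the PyMT-M call without PyMT-M replicate 2 (0.0502). Under library totals neither call remained (-0.29 and -0.15).

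Atp6v1f (ENSMUSG00000004285, chromosome 6, 29467718 to 29470512, plus strand) encodes subunit F, the partner of D in the shaft. Its level was 74.4, 67.6 and 54.3 CPM alone, 53.3, 41.4 and 38.3 with PyMT-M cells, and 80.9, 107 and 80.9 with PyMT-N cells. Again the PyMT-M libraries were the lowest and the PyMT-N libraries the highest, with no overlap. Between the co-cultures it rose by 1.01 on the log2 scale with PyMT-N cells (SE 0.22, adjusted p = 0.0023, edgeR), 2.01-fold. Against culture alone it was 0.43 (SE 0.23, adjusted p = 0.124) with PyMT-N cells and -0.57 (SE 0.24, adjusted p = 0.0493) with PyMT-M cells. The latter call was lost without any 1 of alone replicates 1 (adjusted p = 0.168) and 2 (0.115) and PyMT-M replicates 2 (0.149) and 3 (0.158), and by DESeq2 (0.0812).

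Subunits E and G make up the peripheral stalks that hold the hexamer still. Atp6v1e1 (ENSMUSG00000019210, chromosome 6, 120794305 to 120822793, minus strand) was at 415, 472 and 475 CPM alone, 264, 179 and 175 with PyMT-M cells, and 231, 249 and 248 with PyMT-N cells. The alone libraries were again apart from all others. It fell by 1.14 on the log2 scale with PyMT-M cells (SE 0.18, adjusted p = 0.000115, edgeR) and fell by 0.90 with PyMT-N cells (SE 0.18, adjusted p = 0.000763), 2.20-fold and 1.87-fold, and both signs turned under the leukocyte scaling (0.32 and 0.14). The gene shares 32 exon bases with Slc25a18 on the other strand, which had a mean of 9.79 CPM alone, and the labels do not say whether counting used strand. Atp6v1e2, the other E gene, had 0 counts in all 9 libraries.

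Atp6v1g1 (ENSMUSG00000039105, chromosome 4, 63544772 to 63550750, plus strand), the ubiquitous G gene, passed in no comparison. Its level was 158, 120.3 and 147 CPM alone, 121, 109.9 and 123 with PyMT-M cells, and 155, 191 and 136 with PyMT-N cells. The PyMT-N libraries were above the PyMT-M libraries and both overlapped culture alone. Between the co-cultures its log2 fold change was 0.45 (SE 0.19, adjusted p = 0.0812, edgeR). Of the other G genes, Atp6v1g3 had 0 counts in all libraries and Atp6v1g2, known mainly from neurons, had 23, 17 and 4 counts in all alone, PyMT-M and PyMT-N libraries.

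Subunits C and H tie the stalks to the membrane sector and take part in the reversible assembly of the pump. Atp6v1c1 (ENSMUSG00000022295, chromosome 15, 38661933 to 38692446, plus strand) was at 109.6, 139 and 76.9 CPM alone, 81.3, 80.2 and 85.2 with PyMT-M cells, and 73.8, 65.8 and 79.0 with PyMT-N cells. Alone replicate 3 lay within the range of the co-cultures. The log2 fold change with PyMT-N cells was -0.60 (SE 0.22, adjusted p = 0.0347, edgeR), and this call was lost without any 1 of the other 5 libraries compared (adjusted p = 0.0667 to 0.221). With PyMT-M cells it was -0.42 (SE 0.22, adjusted p = 0.113), and -0.59 without alone replicate 3 (adjusted p = 0.00825). Atp6v1c2, the other C gene, had 0 counts alone, 3 with PyMT-M cells and 37 with PyMT-N cells, of which 33 were in PyMT-N replicate 3.

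Atp6v1h (ENSMUSG00000033793, chromosome 1, 5070018 to 5162529, plus strand) was at 34.8, 30.3 and 79.2 CPM alone, 52.9, 61.7 and 46.6 with PyMT-M cells, and 36.2, 34.4 and 46.9 with PyMT-N cells. Alone replicate 3 was the highest of all 9 libraries and the other alone libraries were among the lowest. The log2 fold change was -0.20 (SE 0.33, adjusted p = 0.633, edgeR) with PyMT-N and 0.25 (SE 0.32, adjusted p = 0.516) with PyMT-M cells. Without alone replicate 3 these values were 0.29 and 0.74, the latter with an adjusted p of 0.0139. The gene shares 127 exon bases with Rgs20 on the other strand, which had at most 2.29 CPM in a library.

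In the membrane sector, subunit d couples the shaft to the ring of proton-carrying subunits. Atp6v0d1 (ENSMUSG00000013160, chromosome 8, 105524465 to 105566047, minus strand), whose E-box lies at the start printed above, was at 336, 358 and 287 CPM alone, 135, 137 and 129 with PyMT-M cells, and 138, 119 and 127 with PyMT-N cells. The co-cultures overlapped and both were apart from culture alone. It fell by 1.36 on the log2 scale with PyMT-N cells (SE 0.17, adjusted p = 9.6e-06, edgeR) and fell by 1.29 with PyMT-M cells (SE 0.17, adjusted p = 1.76e-05), 2.56-fold and 2.45-fold. Between the co-cultures its log2 fold change was -0.06 (SE 0.17, adjusted p = 0.803). Under the leukocyte scaling the values were -0.33 (adjusted p = 0.199) and 0.20 against culture alone. Atp6v0d2, the d gene of osteoclasts and some macrophages, had 1, 8 and 6 counts in all alone, PyMT-M and PyMT-N libraries.

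Atp6ap1 (ENSMUSG00000019087, chromosome X, 74297097 to 74304721, plus strand) encodes an accessory protein of the membrane sector that helps the pump assemble. It was at 596, 532 and 320.6 CPM alone, 368, 369 and 315 with PyMT-M cells, and 436, 357 and 313 with PyMT-N cells. Alone replicate 3 was again within the co-culture range. The log2 fold change was -0.40 (SE 0.21, adjusted p = 0.129, edgeR) with PyMT-N and -0.47 (SE 0.21, adjusted p = 0.0726) with PyMT-M cells. Without alone replicate 3, which also had the highest mitochondrial share, it was -0.61 (adjusted p = 0.00306) and -0.68 (adjusted p = 0.00119).

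**Figure D3:**
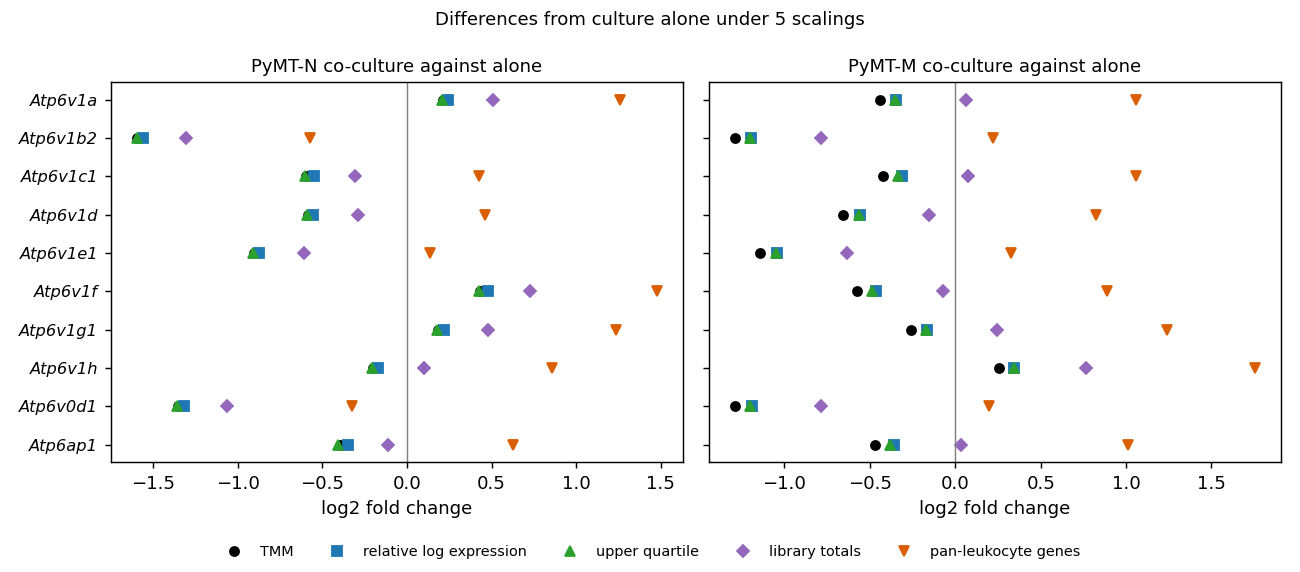
Log2 fold change against culture alone (x axis) of the 10 V-ATPase genes (y axis) under 5 scalings, marked by symbol, in both co-cultures. The leukocyte scaling moves all genes to the right by about the same amount, so that Atp6v1b2 stays below 0 with PyMT-N cells (-0.57) and is at 0.22 with PyMT-M cells.

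Per kilobase of exon, levels can be compared between the genes. Alone, Atp6v1b2 (200.3 CPM per kb), Atp6v0d1 (182), Atp6ap1 (159.6), Atp6v1g1 (125) and Atp6v1e1 (110.5) led, and each of the first 4 overlapped the next in its libraries. Atp6v1a (74.0), Atp6v1f (61.6), Atp6v1d (47.9), Atp6v1c1 (19.4) and Atp6v1h (4.93) followed, with no overlap between neighbours. With PyMT-M cells Atp6ap1 (116) and Atp6v1g1 (104) overlapped each other at the top, followed by Atp6v1b2 (81.9), Atp6v0d1 (74.7), Atp6v1a (54.4), Atp6v1e1 (50.05) and Atp6v1f (41.7), among which Atp6v1b2 overlapped Atp6v0d1 and the last 3 overlapped in turn. Atp6v1g1 (142) and Atp6ap1 (122) also led with PyMT-N cells, before Atp6v1a (85.7), Atp6v1f (84.2), Atp6v0d1 (71.5), Atp6v1b2 (66.4) and Atp6v1e1 (59.0), and neighbours among these last 5 overlapped. Atp6v1d (30.4 and 31.9), Atp6v1c1 (14.7 and 13.0) and Atp6v1h (5.51 and 4.02) came last in both co-cultures. The order depends on the length used: per kilobase of coding sequence Atp6v1e1 (669) came next to Atp6v1b2 alone, ahead of Atp6v1g1 (400.3), Atp6ap1 (316) and Atp6v0d1 (311).

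The shares of the 10 genes in their summed level per kilobase are free of the scaling. Atp6v1b2 made up 20.4% ± 2.10 (SD, n = 3) alone, 14.3% ± 2.36 with PyMT-M cells and 9.80% ± 1.68 with PyMT-N cells. The Atp6v0d1 share was 18.5% ± 1.07, 13.1% ± 0.900 and 10.6% ± 1.14 in the same order. Both genes had shares that did not overlap between any of the conditions. In the other direction, Atp6v1g1 made up 12.7% ± 2.02, 18.1% ± 0.796 and 20.8% ± 2.32, also without overlap. The share of Atp6v1f was 6.23% ± 0.660, 7.26% ± 0.965 and 12.4% ± 1.56, and that of Atp6v1a 7.54% ± 0.821, 9.48% ± 1.07 and 12.6% ± 0.481. For both, PyMT-N cells stood apart from the other conditions, which overlapped. Atp6v1e1 had 11.3% ± 1.33, 8.68% ± 1.65 and 8.72% ± 0.873, Atp6ap1 16.0% ± 4.05, 20.3% ± 2.06 and 17.9% ± 2.32, and Atp6v1d 4.89% ± 0.686, 5.29% ± 0.280 and 4.68% ± 0.690. An exact permutation test over libraries cannot go below p = 0.1 here, and the lowest value adjusted over the 30 share tests was 0.188. The sum of the 10 genes was 3358 ± 127 CPM alone, 1892 ± 116 with PyMT-M cells and 2118 ± 125 with PyMT-N cells, or 2778 ± 161, 2221 ± 84.5 and 2147 ± 105 CPM of the plain totals.

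**Figure D4:**
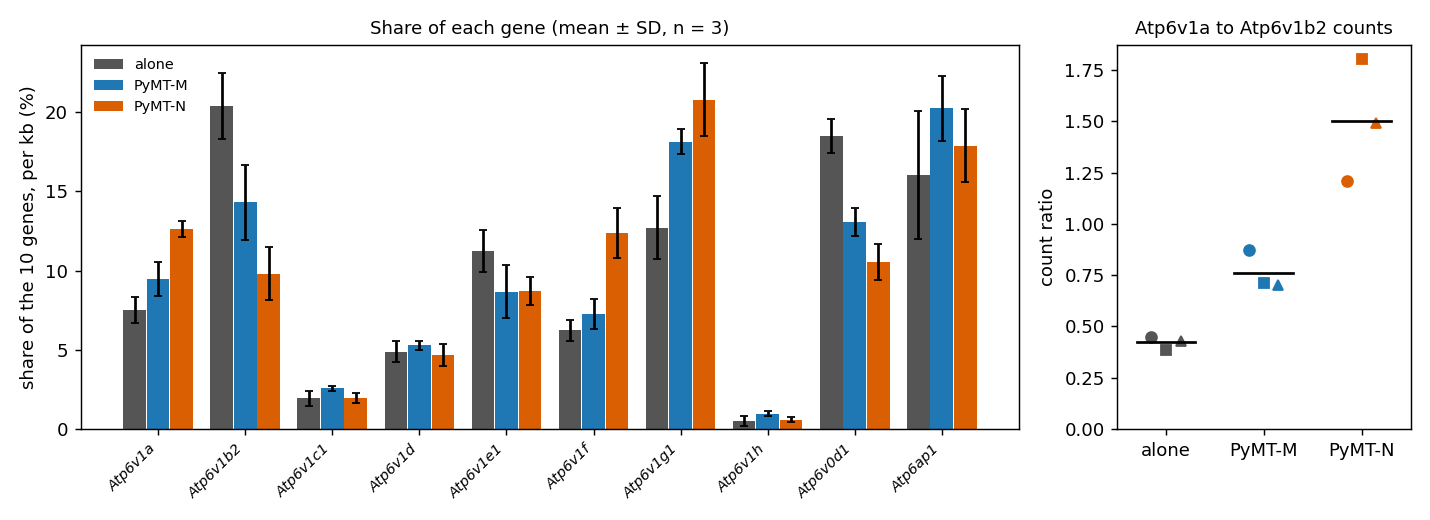
Left, share of each V-ATPase gene in the summed level per kilobase of the 10 (y axis, percent, bars from 0, mean ± SD of 3 libraries) in the 3 conditions. Right, count ratio of Atp6v1a to Atp6v1b2 in each library (y axis), which runs from 0.387 to 0.447 alone and from 1.21 to 1.80 with PyMT-N cells.

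Of 16 other subunit genes listed, 8 were tested and 8 had too few counts. With PyMT-M cells 7 of the 8 were lower than alone and 0 higher, with a median of -1.46, where 27.9% of all genes were lower and 28.2% higher. With PyMT-N cells 5 were lower and 0 higher, with a median of -0.72, against 23.6% and 29.4% of all genes (edgeR, adjusted p under 0.05). Between the co-cultures 4 were higher with PyMT-N cells and 0 lower, with a median of 0.60, against 19.1% and 15.5%. The counts of 0 were 0 at an unadjusted p under 0.05, by DESeq2 and by limma-voom too. Under the leukocyte scaling 1 was higher than alone with PyMT-M cells, 3 with PyMT-N cells and none was called lower in either. Of all 12012 genes, 7578 were then higher and 295 lower with PyMT-M cells, and 6690 and 934 with PyMT-N cells. The a subunit carries the proton path and exists in copies with different destinations in the cell. Tcirg1, the copy best known from osteoclasts, was at 182, 222 and 239.8 CPM alone, 71.4, 73.5 and 74.0 with PyMT-M cells, and 150.4, 126 and 142 with PyMT-N cells. The 3 conditions did not overlap, and Tcirg1 fell by 1.55 on the log2 scale with PyMT-M cells (SE 0.18, adjusted p = 7.83e-06) and fell by 0.62 with PyMT-N cells (SE 0.18, adjusted p = 0.00929). The PyMT-N call was lost under library totals (-0.32, adjusted p = 0.145) and with no filter (-0.55, adjusted p = 0.0670), and under the leukocyte scaling neither passed (0.41 and -0.06 with PyMT-N and PyMT-M cells). Atp6v0a1, another a copy, was at 336, 371 and 277 CPM alone, 120.6, 119 and 119.8 with PyMT-M cells, and 177, 173 and 176 with PyMT-N cells. It fell by 1.46 (SE 0.17, adjusted p = 6.65e-06) and fell by 0.91 (SE 0.17, adjusted p = 0.000348) in that order. Between the co-cultures its log2 fold change of 0.55 (adjusted p = 0.0192) was called, but not without any 1 of 5 of the 6 libraries (adjusted p = 0.0518 to 0.0646), PyMT-N replicate 2 being the exception.

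Atp6v0a2, the a copy of the Golgi and endosomes, was at 93.1, 99.4 and 253 CPM alone, 78.0, 63.9 and 80.4 with PyMT-M cells, and 117, 128 and 134 with PyMT-N cells. Alone replicate 3 set its alone mean: the PyMT-M difference was -0.96 (adjusted p = 0.0160, edgeR) with that library and -0.38 (adjusted p = 0.0875) without it, and the call was also lost without PyMT-M replicate 2 (-0.85, adjusted p = 0.0658). Per kilobase, Atp6v0a1 held 42.8% ± 9.39, 40.3% ± 0.965 and 35.3% ± 0.851 of the a copies in the alone, PyMT-M and PyMT-N libraries (SD, n = 3). The Tcirg1 share was 39.2% ± 1.26, 34.98% ± 1.24 and 39.9% ± 2.42, and Atp6v0a4, a copy of kidney and inner ear, had 0, 14 and 0 counts.

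Among the ring and small membrane subunits, Atp6v0b, whose promoter held 2 E-boxes, was at 1218, 1327 and 1729 CPM alone, 514, 435 and 523 with PyMT-M cells, and 669.9, 517 and 574 with PyMT-N cells. It fell by 1.54 on the log2 scale with PyMT-M (SE 0.17, adjusted p = 4.94e-06, edgeR) and fell by 1.28 with PyMT-N cells (SE 0.17, adjusted p = 1.98e-05). It shares 243 exon bases with an antisense gene. The main ring gene Atp6v0c was at 25.4, 31.8 and 49.8 CPM alone, 16.8, 12.4 and 7.72 with PyMT-M cells, and 31.9, 24.5 and 28.6 with PyMT-N cells, and was 1.18 higher on the log2 scale with PyMT-N than with PyMT-M cells (SE 0.32, adjusted p = 0.0101). Processed copies of this gene in the genome make its count uncertain. Atp6v0e was at 443, 409 and 485 CPM alone, 355, 321 and 335 with PyMT-M cells, and 488, 579 and 513 with PyMT-N cells, the same order of conditions as for Atp6v1a and Atp6v1f. Its log2 fold change was 0.64 between the co-cultures (SE 0.15, adjusted p = 0.00386), -0.40 with PyMT-M cells (SE 0.15, adjusted p = 0.0370, lost by DESeq2 and without any 1 library but alone replicate 2) and 0.24 with PyMT-N cells (SE 0.15, adjusted p = 0.196). The accessory gene Atp6ap2 fell by 1.22 with PyMT-M cells (SE 0.20, adjusted p = 0.000128) and fell by 0.83 with PyMT-N cells (SE 0.20, adjusted p = 0.00256). Atp6v0e2 had 3, 1 and 11 counts and Rnasek 13, 10 and 3 in all alone, PyMT-M and PyMT-N libraries. Rnasek shares 599 of its 885 exon bases with Gm21988 on the same strand, and how shared reads were counted is not stated, so its count is uncertain.

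**Figure D5:**
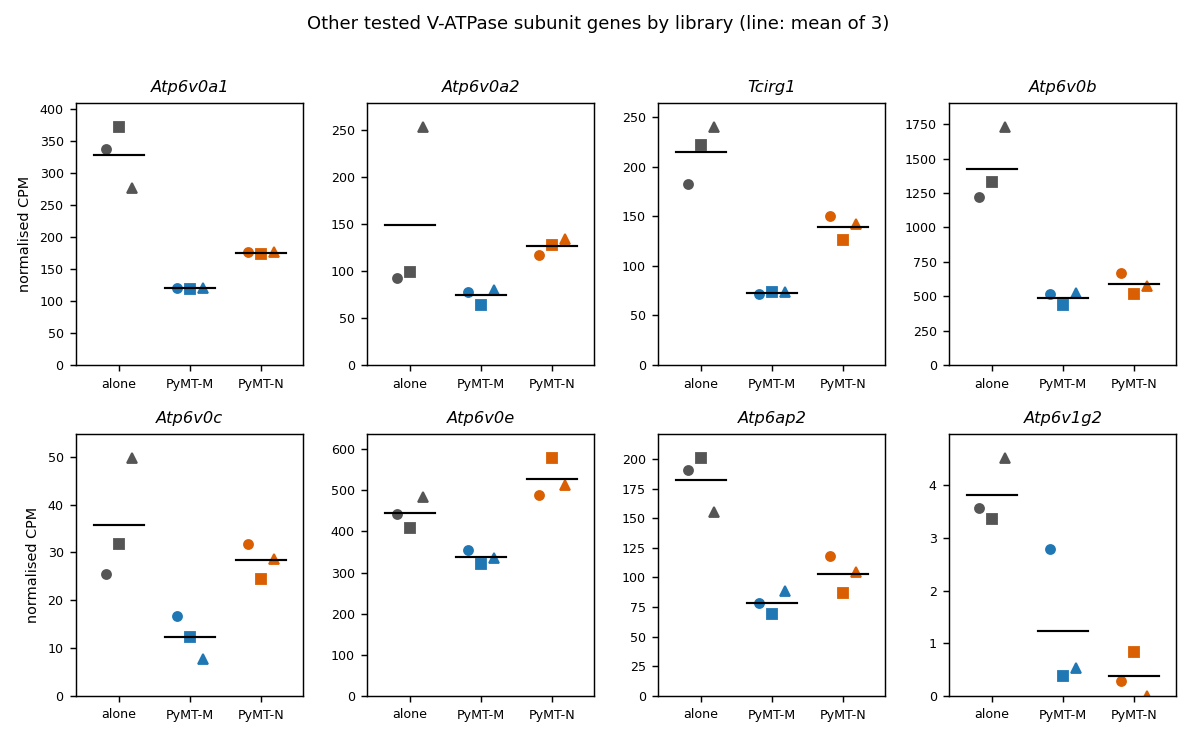
Normalised CPM (y axis) of the 8 other tested V-ATPase subunit genes in every library of the 3 conditions (x axis; circle, square and triangle for replicates 1, 2 and 3, line for the mean). Tcirg1 and Atp6v0a1 are lowest in all PyMT-M libraries and highest alone, and alone replicate 3 sets the alone mean of Atp6v0a2 (253 CPM).

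Of the 11 genes that assemble and regulate the pump, 10 were tested. With PyMT-N cells 1 was higher and 3 lower than alone (29.4% and 23.6% of all genes), and with PyMT-M cells 2 higher and 4 lower (28.2% and 27.9%). Between the co-cultures 1 was higher and 0 lower (19.1% and 15.5% of all genes). The count of 0 was 2 at an unadjusted p under 0.05, 0 by DESeq2 and 1 by limma-voom. Vma21, an assembly chaperone of the membrane sector, rose by 2.94 on the log2 scale with PyMT-M (SE 0.47, adjusted p = 0.000105, edgeR) and 2.21 with PyMT-N cells (SE 0.49, adjusted p = 0.00163), from 6.13 ± 5.38 CPM alone (SD, n = 3). Dmxl2 and Wdr7 belong to the rabconnectin complex, which joins V1 to V0, and Rogdi is a further partner of it. Rogdi fell by 2.65 with PyMT-M cells and fell by 3.71 with PyMT-N cells, and Wdr7 fell by 1.34 and 1.44 in that order. Dmxl2 was at 365 ± 48.3 CPM alone, 144 ± 12.0 with PyMT-M cells and 338 ± 7.38 with PyMT-N cells. It fell by 1.34 with PyMT-M cells (adjusted p = 1.14e-05) and was 1.23 higher with PyMT-N than with PyMT-M cells (adjusted p = 3.52e-05). Tldc1, of the TLDc family that binds the pump, rose by 2.02 with PyMT-M cells.

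All 4 MiT/TFE factors were tested: 4 were lower and 0 higher with PyMT-M cells than alone (0 also unadjusted, by DESeq2 and by limma-voom), and 2 were lower and 1 higher with PyMT-N cells. Of all genes 27.9% and 23.6% were lower and 28.2% and 29.4% higher in these comparisons. The log2 fold change was -1.34 and -2.07 for Tfeb and -1.30 and -1.12 for Tfe3 with PyMT-M and PyMT-N cells (adjusted p = 0.00113, 4.46e-05, 0.000159 and 0.000533, edgeR). Under the leukocyte scaling their PyMT-M signs turned (0.15 and 0.18). With PyMT-N cells Tfe3 then lost its call (-0.10, adjusted p = 0.732) and Tfeb kept it (-1.04, adjusted p = 0.00888). Tfec, known from myeloid cells, was at 13.9 ± 3.18 CPM alone, 4.42 ± 2.75 with PyMT-M cells and 48.5 ± 10.5 with PyMT-N cells (SD, n = 3). It rose by 1.85 with PyMT-N cells against culture alone and was 3.39 higher than with PyMT-M cells (adjusted p = 4.21e-06).

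Of the 17 genes through which lysosomes report amino acids to mTORC1, 16 were tested. With PyMT-N cells 2 were higher and 7 lower (29.4% and 23.6% of all genes), with PyMT-M cells 2 and 6 (28.2% and 27.9%), and between the co-cultures 1 and 1 (19.1% and 15.5%). Rragd, a Rag GTPase, fell by 4.25 on the log2 scale with PyMT-N cells and was 3.94 lower than with PyMT-M cells, at 52.2 ± 10.5 CPM alone, 42.4 ± 7.64 with PyMT-M cells and 2.75 ± 1.19 with PyMT-N cells (SD, n = 3). Lamtor4, of the Ragulator scaffold, fell by 1.95 with PyMT-M cells and fell by 2.499 with PyMT-N cells, and Fnip2 fell by 1.51 and 1.18 in that order. Rptor, the mTORC1 scaffold, rose by 1.84 with PyMT-M cells and by 1.499 with PyMT-N cells, and Rheb rose by 1.19 with PyMT-N cells. Rheb was 0.73 higher there than with PyMT-M cells (adjusted p = 0.0188, edgeR), a call lost under library totals (0.0908) and without PyMT-M replicates 2 (0.0659) or 3 (0.0709) or PyMT-N replicates 2 (0.0703) or 3 (0.0704). Mlst8 was at 1.32 with PyMT-M cells (adjusted p = 0.0465), and this call was lost by limma-voom (0.0631) and without alone replicates 1 (0.105) or 2 (0.188) or PyMT-M replicates 1 (0.0979) or 3 (0.119).

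The 17 lysosomal membrane proteins and the 26 genes listed as hydrolases of acid compartments were all tested. The latter list, called hydrolases below, also holds Psap, Gm2a and Npc2, which are not hydrolases themselves. With PyMT-M cells 11 membrane proteins were lower and 0 higher, and 18 hydrolases lower and 1 higher, where 27.9% of all genes were lower and 28.2% higher. With PyMT-N cells 11 membrane proteins were lower and 1 higher, and 11 hydrolases lower and 0 higher, where 23.6% of all genes were lower and 29.4% higher (edgeR, adjusted p under 0.05). The counts of 0 were also 0 at an unadjusted p under 0.05, and DESeq2 and limma-voom gave 1 and 0 for the membrane proteins and 0 and 1 for the hydrolases. Under the leukocyte scaling the PyMT-N counts became 6 higher and 1 lower for the membrane proteins and 9 and 4 for the hydrolases, and the PyMT-M counts 9 and 1, and 7 and 5. Of all 12012 genes, 6690 were then higher and 934 lower with PyMT-N cells, and 7578 and 295 with PyMT-M cells. Between the co-cultures 6 membrane proteins and 7 hydrolases were higher and 2 and 4 lower with PyMT-N cells, where 19.1% of all genes were higher and 15.5% lower. Psap, the precursor of the saposins, fell by 2.31 on the log2 scale with PyMT-M cells and fell by 2.10 with PyMT-N cells. Hexa, a hexosaminidase subunit, fell by 2.09 and 2.91 in that order. Lipa, the acid lipase, fell by 2.65 with PyMT-M cells and by 0.94 with PyMT-N cells. It was 1.71 higher with PyMT-N than with PyMT-M cells, and Gm2a, the GM2 activator, was 1.81 higher. Gaa, the acid glucosidase, was at 0.68 with PyMT-M cells (adjusted p = 0.0375, edgeR), a call lost without alone replicates 1 (0.181) or 2 (0.0781) or PyMT-M replicates 1 (0.0858) or 2 (0.0780). Slc11a1, the phagosomal metal transporter, fell by 2.79 with PyMT-M cells and by 1.21 with PyMT-N cells. Npc1, the cholesterol exporter, fell by 1.93 with PyMT-M cells and fell by 1.37 with PyMT-N cells. Ctns, the cystine exporter, fell by 1.52 with PyMT-N cells, where Laptm4a was at 0.68 (adjusted p = 0.0184, or 0.0514 without PyMT-N replicate 1). Scarb2, a receptor that brings glucocerebrosidase to lysosomes, was 1.70 higher with PyMT-N than with PyMT-M cells, and Tpcn1, a cation channel, 1.48 lower (log2 fold change -1.48).

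Likeness of pattern was measured as the root mean square difference of log2 CPM, centred per gene, over the 9 libraries and 6345 genes. The mean profile of the 10 V-ATPase genes was most like Gna13 (0.0780), Bmp2k (0.0855) and Cdk9 (0.0974). Atp6v0d1 was most like Jak1 (0.0888), Bcl10 (0.0976) and Mpeg1 (0.0982), Atp6v1e1 like Il6ra (0.0930), P2rx4 (0.119) and Arpc3 (0.124), and Atp6v1b2 like Klhl5 (0.139), Lgals3 (0.139) and Hps3 (0.144). These values are descriptions, and all genes share the same libraries and scaling.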

How the data were processed

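Each library started from 150 pg of neutrophil RNA (QIAseq FX single-cell kit, per the labels' protocols). Per the submitters' processing notes, STAR and the builds GRCm38 and mm10 were used. The authors deposited raw read counts per Ensembl gene. How reads were counted, and whether by strand, is not stated in these sources. The members and gene lists were chosen with earlier results of these data known. Symbols, coordinates and exon lengths came from GENCODE M21 on GRCm38.

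Genes were filtered with filterByExpr (count minimum 10, total minimum 15), scaled by TMM and fitted with the robust quasi-likelihood test of edgeR 4.0.16 in R 4.3.3, with all 9 libraries in 1 fit and Benjamini-Hochberg adjustment over 12012 genes. The SE of a log2 fold change was taken as its size over the root of F. Simulated data with known changes were used to test the code. Shares and ratios were compared by exact permutation of libraries. Named genes were all subunits and, from each other list and comparison, up to 2 called genes of smallest adjusted p per direction. For likeness, the 3 nearest genes were taken to the members' mean and to the 3 members that varied most between conditions. Alternatives were other size factors, filters, DESeq2 1.42.0, limma-voom (limma 3.58.1), other edgeR settings, a replicate block, a threshold of 0.01 and leaving out each library. Motif and sequence searches used RefSeq windows.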

Additional observations from a re-analysis of the deposited data

Results flagged for a closer look

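Each result here is listed because the PyMT-N and PyMT-M effects on a gene differed from each other by the edgeR test between the co-cultures (log2 fold change, PyMT-N against PyMT-M). Among subunit genes these were Atp6v1a (0.65), Atp6v1f (1.01), Atp6v0a1 (0.55), Tcirg1 (0.93), Atp6v0c (1.18) and Atp6v0e (0.64), all higher with PyMT-N cells. Under the leukocyte scaling none of these 6 passed the test. Higher with PyMT-N cells were also Tfec (3.39), Gm2a (1.81), Lipa (1.71), Scarb2 (1.70), Slc11a1 (1.59), Dmxl2 (1.23) and Rheb (0.73). Lower were Rragd (-3.94), Tpcn1 (-1.48), Ctns (-1.09), Gaa (-0.91) and Hexa (-0.82). The 16 epithelial markers summed to 2365 to 3158 CPM in PyMT-N libraries and to at most 166 in PyMT-M libraries. The 14 monocyte and macrophage markers summed to 2111 to 2617 and 566 to 848 CPM, and the 18 mesenchymal markers to 2019 to 2334 and 3468 to 4142. In that order of lists, 15 of 15, 5 of 12 and 3 of 11 tested markers were called higher with PyMT-N cells and 0, 3 and 6 lower (19.1% and 15.5% of all genes). What RNA of other cells added to the differences listed here was not tested.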

How the results depend on the processing

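Scaling decided most of the directions against culture alone, and the cause was not tested. With library totals the members called higher and lower with PyMT-N cells were 2 and 3, those lower with PyMT-M cells 3 and those lower between the co-cultures 1, and 1913 genes of all were lower with PyMT-M cells. With the leukocyte genes the members higher and lower were 5 and 1 with PyMT-N cells, 7 and 0 with PyMT-M cells and 0 and 2 between the co-cultures. All genes higher and lower were then 6690 and 934, 7578 and 295, and 1414 and 3543. With no filter or a threshold of 0.01, members lower with PyMT-N cells were 3, and all genes lower between the co-cultures at 0.01 were 1092. limma-voom called 1 member higher with PyMT-M cells. Leaving out 1 library, members lower ranged from 3 to 6 with PyMT-N cells and from 3 to 8 with PyMT-M cells, and members higher with PyMT-M cells from 0 to 1.

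Signs turned as follows, in log2 fold change. With the leukocyte genes and PyMT-N cells, Atp6v1c1 was 0.43, Atp6v1d 0.46, Atp6v1e1 0.14, Atp6v1h 0.86, Atp6ap1 0.62, Atp6v0a1 0.12, Atp6v0a2 0.88, Tcirg1 0.41, Atp6v0c 0.76 and Atp6ap2 0.19. With the leukocyte genes and PyMT-M cells, Atp6v1a was 1.06, Atp6v1b2 0.22, Atp6v1c1 1.06, Atp6v1d 0.83, Atp6v1e1 0.32, Atp6v1f 0.89, Atp6v1g1 1.24, Atp6v0d1 0.20, Atp6ap1 1.01, Atp6v0a1 0.027, Atp6v0a2 0.55, Atp6v0c 0.0026, Atp6v0e 1.096, Atp6ap2 0.27, Dmxl2 0.14, Tfeb 0.15 and Tfe3 0.18. Between the co-cultures they gave Atp6v1d -0.36, Atp6v1e1 -0.19, Atp6v1g1 -0.0013, Atp6ap1 -0.39, Atp6v0b -0.21 and Atp6ap2 -0.077. Library totals gave Atp6v1h 0.10, Atp6v0a2 0.12 and Atp6v0c 0.016 with PyMT-N cells, Atp6v1a 0.061, Atp6v1c1 0.077, Atp6v1g1 0.25, Atp6ap1 0.036 and Atp6v0e 0.11 with PyMT-M cells, and Atp6v1d -0.14 and Atp6ap1 -0.15 between the co-cultures, where the upper quartile gave -0.027 and -0.024. limma-voom gave Atp6v1h 0.31 and Atp6v0a2 0.35 with PyMT-N cells and Atp6ap1 -0.049 between the co-cultures. Leaving out 1 library, Atp6v1h ranged from -0.46 to 0.29 and Atp6v0a2 from -0.43 to 0.40 with PyMT-N cells, and Atp6v1h from -0.0073 to 0.74 with PyMT-M cells. Between the co-cultures Atp6v1d ranged from -0.096 to 0.16 and Atp6ap1 from -0.066 to 0.18. Under the leukocyte scaling some named genes other than subunits lost calls without a turn of sign (edgeR). With PyMT-N cells these were Wdr7 (-0.39, adjusted p = 0.427), Tfe3 (-0.10, 0.732), Ctns (-0.49, 0.187) and Npc1 (-0.34, 0.189). With PyMT-M cells they were Lamtor4 (-0.47, 0.201), Fnip2 (-0.025, 0.933) and Npc1 (-0.46, 0.0757), and between the co-cultures Rheb (0.30, 0.401).

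The count columns of same-numbered libraries also carry a common number across conditions, and the labels do not say what it stands for. Correlations of same-numbered deviations were -0.0781 to 0.0285, which with 3 libraries per condition cannot exclude a pairing. With the replicate number as a block, 4 members were lower with PyMT-N cells (Atp6v1c1 lost, adjusted p = 0.0617, edgeR), 5 with PyMT-M cells (Atp6v1f lost, 0.0657) and 2 higher between the co-cultures; Atp6v0e with PyMT-M cells was lost (0.0539) and Atp6v0a2 gained between the co-cultures (0.0399). Mlst8 and Gaa also lost their PyMT-M calls, and the block changed no other call of a subunit gene or call by which another gene was named. The Atp6v1b2, Atp6v1e1 and Atp6v0d1 calls against culture alone held under every alternative other than the leukocyte scaling. At these depths the genes of few counts, such as Atp6v1f and Atp6v1h, have the largest SEs among the members.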
